A study of Rattus norvegicus with 6 samples.

Results

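Calmodulin and the enzymes and transcription factor that act downstream of it were followed in the transcriptome of rat neural stem/progenitor cells (NSPCs) on carbon films. The set holds 9 gene symbols: Calm2 and Calm3 (calmodulin), Ppp3ca, Ppp3cb and Ppp3r1 (calcineurin subunits), Camk2d, Camk2g and Camkk2 (calcium/calmodulin-dependent kinases) and Creb1. They occupied 10 of the 17048 rows of each count table, because Calm2 was listed in 2 rows, which were kept apart. The set was chosen by gene name with earlier results of the same comparisons known, so its members count as selected on measured values, and their levels and fold changes are given as a description with no test of their own.

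Each table held 3′-end tag counts (QuantSeq) of wild-type rat NSPCs kept for 24 h in stemness-maintaining medium on a film of 1 of 3 conductivities, named “High”, “Medium” and “Low”, with 2 libraries each. Genotype, medium and time were shared by all 6 libraries, so the film was the labelled difference, and no untreated surface was among the libraries. The methods describe the cells as taken from the telencephalon of rat embryos and the films as coated with poly-D-lysine and laminin. In the adhesion assays the poly-D-lysine dose was not the same on all films, and was set to match the laminin bound. The sequencing methods do not restate the coating. No label says whether replicate libraries came from separate cultures or animals, so every p-value here measures the spread between libraries, which may be technical.

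Calmodulin is a small protein with EF-hand calcium-binding loops, and several genes encode the same protein. When cytosolic calcium rises, calcium-loaded calmodulin switches on calcineurin, a phosphatase whose best known substrates are the NFAT transcription factors, and the calcium/calmodulin-dependent (CaM) kinases. CaM kinases and protein kinase A phosphorylate CREB, which then recruits coactivators and drives activity-dependent genes. In neural progenitors and neurons this route links calcium entry to transcription.

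Promoter sequence is shown for the calcineurin subunits, because Ppp3r1 values on High lay apart from those on the other films and Ppp3ca values did not, and because CREB, a member of the set, binds a defined motif. The sequences are the 250 bases before a RefSeq transcript start in the GRCr8 build, all on the plus strand, whereas the counts were made on rn6. Ppp3r1 was read from chr14:95769596-95769845, Ppp3ca from chr2:227839357-227839606 and Ppp3cb from chr15:3809012-3809261. Capitals mark the core of the cAMP response element, TGACG or its reverse complement CGTCA.
Ppp3r1: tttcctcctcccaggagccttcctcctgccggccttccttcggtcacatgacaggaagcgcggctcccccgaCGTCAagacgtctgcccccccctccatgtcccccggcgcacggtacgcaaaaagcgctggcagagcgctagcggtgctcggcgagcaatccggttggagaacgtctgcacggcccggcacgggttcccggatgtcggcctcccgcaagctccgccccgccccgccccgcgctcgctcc
Ppp3ca: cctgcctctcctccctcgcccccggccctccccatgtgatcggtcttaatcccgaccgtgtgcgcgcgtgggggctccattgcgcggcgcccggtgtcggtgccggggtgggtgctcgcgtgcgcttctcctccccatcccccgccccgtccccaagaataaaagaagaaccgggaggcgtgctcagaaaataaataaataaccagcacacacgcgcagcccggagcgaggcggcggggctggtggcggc
Ppp3cb: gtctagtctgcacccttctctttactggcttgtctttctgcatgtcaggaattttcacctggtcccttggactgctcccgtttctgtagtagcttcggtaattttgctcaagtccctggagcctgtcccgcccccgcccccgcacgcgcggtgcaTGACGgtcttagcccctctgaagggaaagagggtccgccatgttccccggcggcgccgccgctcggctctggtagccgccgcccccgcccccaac
The core began 178 bases before the start in Ppp3r1, on the reverse strand, and 95 bases before it in Ppp3cb, on the forward strand, and the Ppp3ca window held none. Of the 9 symbols, 6 had such windows, 7 windows in all, and 3 of these held the core on either strand, the third being 1 of the 2 windows of Creb1. The core occurred in 18.2% of all 33469 windows of the same length. The full palindrome TGACGTCA, which contains the core on both strands, was in 0 of the 7 windows and in 1.59% of all windows. The GC box GGGCGG, searched on both strands, was in 6 of the 7 windows and in 30.5% of all. CCAAT on either strand was in 0 of the 7 and in 34% of all. These are matches of letters and say nothing on whether a factor was bound.

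The 6 libraries held 5124863 to 6213676 counts. Medium replicate 1 had counts in 5355 rows, compared with 6689 to 7809 rows in the other libraries. On High, 25.9% and 38.3% of counts fell on ribosomal RNA rows, compared with 6.90% to 12.8% in the other 4 libraries. Levels below are CPM, the count divided by the TMM-scaled library size and multiplied by 1e6. Library-size scaling alone placed the median of all rows at 0.26 on the log2 scale for Low and Medium against High, compared with -0.12 under TMM. A row passed the abundance filter in 7729 of 17048 cases, and 7 of the 10 member rows did: both Calm2 rows, Calm3, Ppp3ca, Ppp3cb, Ppp3r1 and Camkk2. Camk2d, Camk2g and Creb1 did not.

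**Figure D1:**
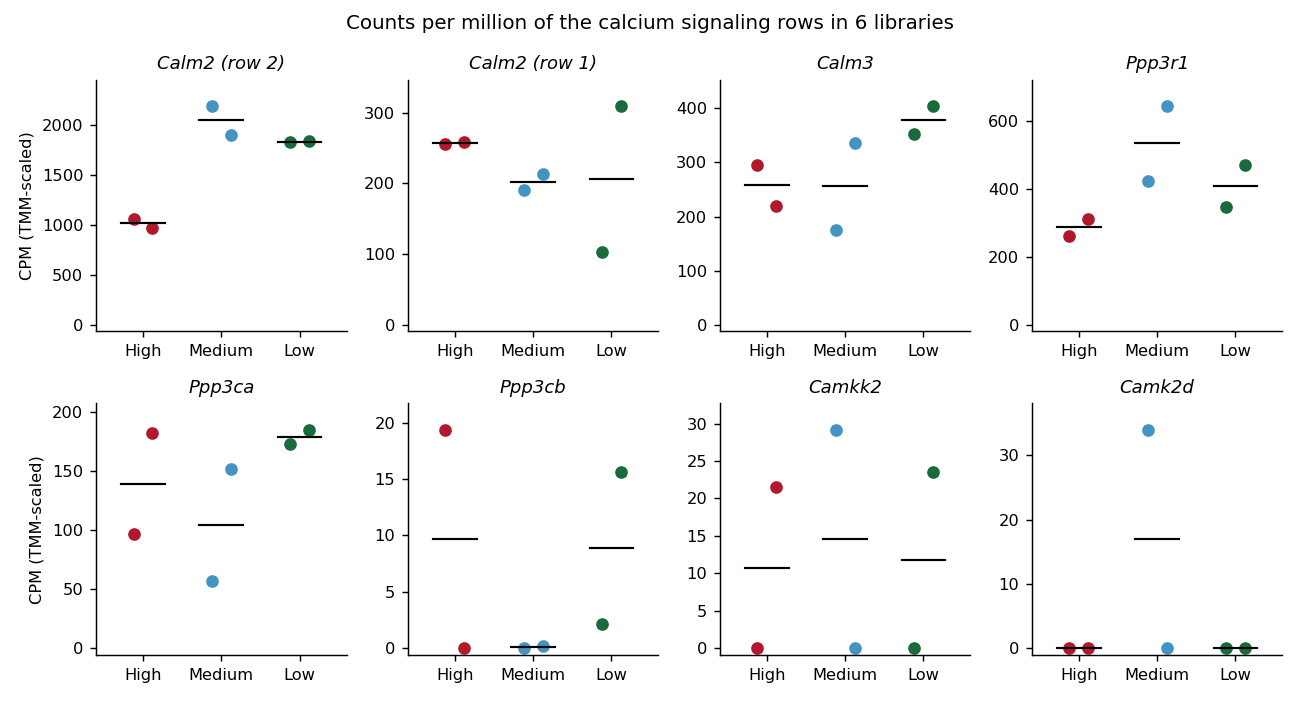
CPM after TMM scaling (vertical axis, starting near 0) on the 3 films for 8 member rows, with 1 point per library and a bar at the mean of 2 libraries. Row 2 of Calm2 lies between 969 and 1057 CPM on High and between 1825 and 2187 CPM on the other films, whereas Ppp3cb, Camkk2 and Camk2d have libraries at 0.

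Row 2 of Calm2 was the most abundant row of the set. It had 5132 and 4061 counts on High, 12741 and 11577 on Medium and 12595 and 10941 on Low. In CPM it stood at 1057 and 969 on High, 2187 and 1899 on Medium, and 1825 and 1836 on Low. The 4 Low and Medium values were all above the pair of High values, and the replicates of each film lay close together. The means were 1013 ± 62.6 CPM on High, 2043 ± 203 CPM on Medium and 1831 ± 8.30 CPM on Low (SD, n = 2 each).

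The fitted log2 fold change of this row was 0.93 ± 0.20 (SE) for Low and Medium averaged against High, a 1.91-fold higher value. It was 1.01 ± 0.22 for Medium against High and 0.85 ± 0.22 for Low against High. Low and Medium differed from each other by -0.16 ± 0.22, which was less than the error. The edgeR quasi-likelihood test gave an adjusted p of 0.204 for Low and Medium against High, so the row was not called, whereas DESeq2 gave 2.23e-07 and limma-voom gave 0.0221. DESeq2 called 4.85% of all tested rows in this contrast and limma-voom 0.298%. With each library left out in turn, the fold change stayed between 0.870 and 0.999 on the log2 scale, with edgeR adjusted p from 0.0172 (without Low replicate 2) to 0.588 (without High replicate 2). It was under 0.05 without Medium replicate 2 (0.0314), without Low replicate 1 (0.0209) or without Low replicate 2. The 3 values over 0.05 were those without a High library or without Medium replicate 1.

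The other Calm2 row behaved differently. Row 1 had 256 and 259 CPM on High, 191 and 213 on Medium, and 103 and 310 on Low. Its Low libraries were the lowest and the highest of the 6, so the groups overlapped, and the fitted log2 fold change for Low and Medium against High was -0.34 ± 0.48. That sign rested on scaling, since with library sizes alone it was 0.06. Without Low replicate 2 it was -0.84, and the Low against High value ranged from -1.33 without Low replicate 2 to 0.27 without Low replicate 1.

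Because both rows carry the symbol of 1 gene, their ratio was followed within each library, where scaling cancels. Row 2 held 4.12 and 3.74 times the counts of row 1 on High, 11.4 and 8.90 times on Medium, and 17.8 and 5.93 times on Low. Each of the 4 Low and Medium ratios was thus above both ratios on High. The tables hold 149 symbols listed more than once, and 41 of them had exactly 2 rows that passed the filter. Across those 41 the SD of the log2 ratio over the 6 libraries had a median of 0.17, and Calm2 had 0.88. Calm2 had the widest spread of the 41, ahead of Fam50a at 0.44. The correlation of the rows over the 6 libraries had a median of 0.99 across the 41 symbols and was -0.38 for Calm2. Many of these pairs had nearly equal levels, such as Actg1 (means of 2065 and 1983 CPM), and reads counted in both rows can raise the correlation. The Calm2 rows averaged 222 and 1629 CPM. Among pairs at unlike levels, the correlations included -0.002 (Rps10), 0.26 (Rps14), 0.63 (Rpl37), 0.84 (Rpl8), 0.87 (Rps13) and 0.95 (Rps20). Summed over both rows, Calm2 had a log2 fold change of 0.75 ± 0.19 for Low and Medium against High (edgeR adjusted p = 0.486). The tables give no coordinates for the rows, and the counting kept reads with multiple alignments, so reads shared between near-identical copies of calmodulin sequence cannot be assigned to 1 of them.

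**Figure D2:**
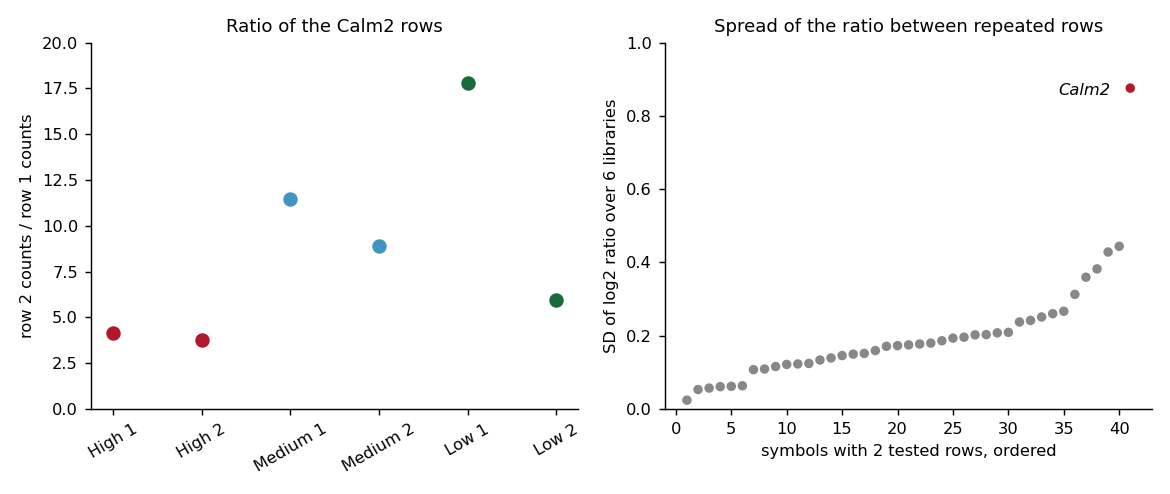
Left, counts of Calm2 row 2 divided by counts of row 1 in each library (vertical axis from 0), with values of 3.74 and 4.12 on High and 5.93 to 17.8 elsewhere. Right, the SD of the log2 ratio over 6 libraries for the 41 symbols with 2 tested rows, in increasing order, where Calm2 is the last point at 0.88.

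Calm3, which encodes the same calmodulin protein from another gene, was close to Calm2 row 1 in abundance. It had 296 and 219 CPM on High, 175 and 336 on Medium, and 352 and 405 on Low. Both Low libraries exceeded both High libraries, while the Medium libraries lay on either side of them. The means were 257 ± 54.0 CPM on High, 256 ± 114 CPM on Medium and 378 ± 37.2 CPM on Low (SD, n = 2 each). The log2 fold change was 0.55 ± 0.44 for Low against High, -0.01 ± 0.43 for Medium against High and 0.57 ± 0.44 for Low against Medium. For Low and Medium against High it was 0.27 ± 0.38, and it was -0.02 without Medium replicate 2.

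Calcineurin is a heterodimer of a catalytic subunit, encoded by Ppp3ca or Ppp3cb in most tissues, and a calcium-binding regulatory subunit, here Ppp3r1. Ppp3r1 had 261 and 312 CPM on High, 424 and 644 on Medium, and 347 and 469 on Low. No Low or Medium value was below a High value, although the lowest of them, at 347 CPM, was only slightly above the higher High library. The means were 286 ± 36.2 CPM on High, 534 ± 155 CPM on Medium and 408 ± 86.2 CPM on Low (SD, n = 2 each). The log2 fold change was 0.71 ± 0.32 for Low and Medium against High, 0.90 ± 0.36 for Medium against High and 0.51 ± 0.36 for Low against High. It remained positive in all 15 alternatives run, from 0.52 without Medium replicate 2 to 1.10 with library sizes alone and its lowest adjusted p among them was 0.182 (DESeq2).

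The catalytic subunit Ppp3ca did not separate the films. It had 96.6 and 182 CPM on High, 57.2 and 152 on Medium, and 173 and 185 on Low. The High and Medium replicates differed from each other by more than the group means did, and the log2 fold change for Low and Medium against High was -0.03 ± 0.61, or 0.38 with library sizes alone. The Low against Medium value was 0.78 ± 0.70. In counts, Ppp3r1 exceeded Ppp3ca 2.70 and 1.71 times on High, 7.42 and 4.23 times on Medium, and 2.01 and 2.53 times on Low. Both Medium ratios lay above those of the other films, and the High and Low ratios overlapped.

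Ppp3cb, the other catalytic subunit, was sparse, with 94 and 0 counts on High, 0 and 1 on Medium, and 15 and 93 on Low. The replicates of High and of Low differed widely, and the standard error of its log2 fold change was 3.29, so no direction can be read at this depth. The core shown in capitals in its promoter window was shared with Ppp3r1, whose counts were 1265 or more in every library. Whether the core bears on the level of either gene was not tested.

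No kinase of the set had counts in both replicates of any film. Camkk2, the kinase that activates CaM kinases I and IV and AMPK, had 0 and 90 counts on High, 170 and 0 on Medium, and 0 and 140 on Low. In each film 1 library held 90 counts or more and the other held 0, so the replicate difference was larger than any difference between films. Camk2d, which encodes a subunit of CaM kinase II, had 198 counts in Medium replicate 1 and 0 in the other 5 libraries. Camk2g, another CaM kinase II subunit, had 0 counts in all 6. A count of 0 allows up to 3 counts, which is 0.435 to 0.716 CPM in these libraries, counting error only. Creb1 had 4 and 1 counts on High and 0 in the 4 other libraries. The Creb1 counts are close to that limit, so a difference between films was not detectable at this depth.

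The rows can be set in order of abundance, since 1 tag is read per transcript end and a count does not grow with transcript length. The counting kept reads with multiple alignments, however, so a calmodulin read may count in more than 1 row. The order, shares and sums below carry that limit. On High, Calm2 row 2 stood at 1013 CPM, followed by Ppp3r1 at 286, Calm2 row 1 at 258, Calm3 at 257 and Ppp3ca at 139 CPM. On that film the range of Calm3 replicates overlapped those of Ppp3r1 and Calm2 row 1, while the ranges of Ppp3r1 and Calm2 row 1 did not overlap. Row 2 of Calm2 alone took 49.4% to 53.2% of the counts of the set on High and 56.6% to 70.6% on the other films. The summed level of the set was 1962 and 1987 CPM on High, 3097 and 3244 CPM on Medium, and 2802 and 3244 CPM on Low. In bulk RNA, a different share of cells with calmodulin transcripts and a different amount per cell cannot be told apart.

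Across the set, 4 of 7 tested rows had positive log2 fold changes for Low and Medium against High and 3 had negative ones, or 6 and 1 with library sizes alone. The median was 0.27, compared with -0.12 over all 7729 rows. By edgeR, 0 of the 7 were called at an adjusted p under 0.05 in this contrast, where 0.129% of all tested rows were called, and 1 had an unadjusted p under 0.05, against 5.5% of all. In Low against High, 0 of 7 were called (all rows: 0.0518%) and 1 had an unadjusted p under 0.05 (all rows: 4.27%). In Medium against High, 0 of 7 were called (all rows: 0.0129%) and 2, Calm2 row 2 and Ppp3r1, had an unadjusted p under 0.05 (all rows: 4.04%). In Low against Medium, 0 of 7 were called (all rows: 0%) and 0 had an unadjusted p under 0.05 (all rows: 1.51%). DESeq2 called 1 of the 7, row 2 of Calm2, in each contrast against High, where it called 4.85% of all rows for Low and Medium, 3.88% for Low and 3.97% for Medium. In Low against Medium it called 0 of the 7 and 1.5% of all rows. Limma-voom called the same row for both films together (all rows: 0.298%) and for Medium (all rows: 0.181%) against High. It called 0 of the 7 in Low against High (all rows: 0.207%) and in Low against Medium (all rows: 0%). In 2 of the 7, Calm2 row 2 and Ppp3r1, the 4 Low and Medium values all exceeded both values on High, as in 8.06% of all tested rows. The choice of members used these contrasts, and nothing further is read from these counts.

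**Figure D3:**
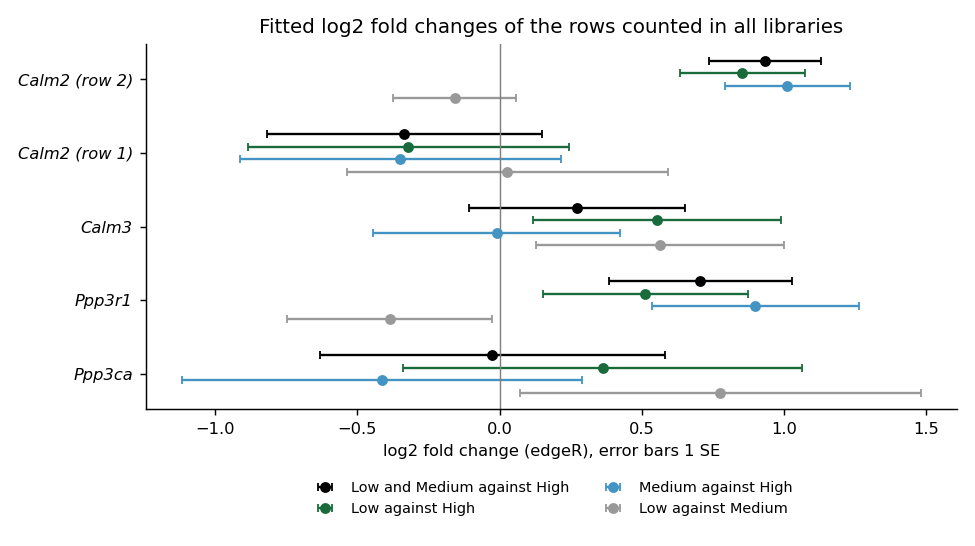
Fitted log2 fold changes (horizontal axis) with bars of 1 SE for the 5 member rows counted in all 6 libraries, in 4 contrasts. Row 2 of Calm2 lies at 0.85 to 1.01 and Ppp3r1 at 0.51 to 0.90 in the contrasts against High, whereas the bars of Calm2 row 1 and Ppp3ca in those contrasts cross 0.

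The gap between replicates was set beside that of rows of like abundance. For Calm2 row 2 the mean gap between replicates was 0.11 on the log2 scale, compared with a median of 0.24 for the 66 rows whose mean log2 CPM lay within 0.5 of it, and 12.1% of those rows had a smaller gap. For Ppp3r1 the gap was 0.43 against 0.46 over 339 rows, for Calm3 0.52 against 0.51 over 459 rows and for Ppp3ca 0.81 against 0.83 over 974 rows. For Camkk2 it was 6.13 against 3.54 over 1184 rows, and 97.2% of those rows had a smaller gap.

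The rows whose log2 CPM followed the calmodulin rows most closely over the 6 libraries were named by Pearson's r, among rows with a mean log2 CPM of at least 5. They share libraries, depth and scaling with the calmodulin rows, and the values describe 6 points. For Calm2 row 2 these included Tbcd (r = 0.99) and Map4 (r = 0.99), among 130 rows with r over 0.9. Tbcd had means of 0 CPM on High, 72.65 on Medium and 39.58 on Low, and Map4 had 33.4, 218 and 144 CPM. Since High lay apart from the other films in this row, r mostly restates that known split, and it does not measure the size of a change. For Calm2 row 1 they were Kif5b (r = 0.98), Slc25a20 (r = 0.97) and Tgs1 (r = 0.97), and for Calm3 Pogz (r = 0.99), Higd2a (r = 0.98) and Copb2 (r = 0.98). The 3 calmodulin rows had no leading row in common.

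Other genes of calcium signaling were read from 7 lists of 126 symbols, of which 70 rows were tested. By edgeR, 0 of the 70 were called in any of the 4 contrasts, and 9 had an unadjusted p under 0.05 for Low and Medium against High, 3 with higher and 6 with lower values. These 9 are 12.9% of the 70, compared with 5.5% of all tested rows, of which 0.129% were called in that contrast. The lists were chosen with earlier results of these data known. Nothing further is therefore read from these shares, here or in the list paragraphs that follow. Of all tested rows, 45.9% had positive fold changes in that contrast. Values of rows that were not called are given below as levels and fitted differences.

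Among calmodulin-binding proteins and effectors, 0 of 11 tested rows were called, 5 had positive and 6 negative fold changes, or 7 and 4 with library sizes alone, and the median was -0.10, or 0.25 with library sizes alone. The most abundant were Marcks, an actin- and calmodulin-binding substrate of protein kinase C, and Nrgn, which encodes neurogranin, a protein that binds calcium-free calmodulin. Marcks had 405 and 155 CPM on High, 365 and 820 on Medium, and 766 and 708 on Low, with a log2 fold change of 1.24 ± 0.45. Nrgn had 274 and 223 CPM on High, 641 and 395 on Medium, and 764 and 246 on Low, with a log2 fold change of 1.04 ± 0.46. In both, 1 Low or Medium library overlapped the High libraries.

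Of 10 tested calcineurin regulators and NFAT rows, 0 were called, 5 were positive and 5 negative, with a median of -0.39, or -0.006 with library sizes alone. The immunophilins Fkbp1a and Ppia, through which FK506 and cyclosporin inhibit calcineurin, were the most abundant. Fkbp1a had 1167 and 1124 CPM on High, 1307 and 1333 on Medium, and 1582 and 1273 on Low, a log2 fold change of 0.26 ± 0.20. Ppia had a log2 fold change of 0.13 ± 0.27.

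Of the other CaM kinases and inhibitors, 4 of 11 rows were tested and 5 had 0 counts in all 6 libraries, among them Camk2a and Camk4. Camk2b was the most abundant CaM kinase row in the lists, with 922 and 872 CPM on High, 617 and 1215 on Medium, and 1939 and 1150 on Low. The Medium libraries lay on either side of High, and its log2 fold change was 0.41 ± 0.31. Camk1g had a log2 fold change of 0.97 ± 0.82. The list had 3 positive and 1 negative values and a median of 0.69.

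Of the CREB family and its coactivators and kinases, 7 rows were tested, 0 were called, and 4 were positive and 3 negative, with a median of 0.37. Prkaca, the catalytic subunit of protein kinase A, had 91.9 and 115 CPM on High, 105 and 294 on Medium, and 411 and 249 on Low, a log2 fold change of 1.31 ± 0.54. Crebbp, a histone acetyltransferase and CREB coactivator, had lower values on Low and Medium, with 212 and 344 CPM on High, 163 and 193 on Medium, and 95.9 and 127 on Low. All 4 lay below both High libraries, and the log2 fold change was -0.98 ± 0.44.

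The other EF-hand calcium sensors had 14 tested rows and 0 called. Of these 8 were positive and 6 negative, with a median of 0.12, or 10 and 4 with library sizes alone. S100a10, a member of the S100 family that does not bind calcium, and Rcn1, a calcium-binding protein of the secretory pathway, were the most abundant, with log2 fold changes of -0.05 ± 0.23 (0.34 with library sizes alone) and -0.42 ± 0.26 (-0.008 with library sizes alone). S100a13 had 64.1 and 24.1 CPM on High, 32.4 and 39.4 on Medium and 0 in both Low libraries. Against a floor of 3 counts per library, High was at least 87.5-fold and Medium at least 71.3-fold higher than Low. These bounds cover counting error only and leave out the spread between replicates. For Camkk2 on Low, 1 replicate had 0 counts and the other 140. The fitted log2 fold change of S100a13 for Low and Medium against High was -5.63 ± 2.20 (edgeR adjusted p = 0.801).

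Of 13 tested rows for calcium entry and store release, 0 were called, 3 were positive and 10 negative, and the median was -1.45. Stim2, a calcium sensor of the endoplasmic reticulum, had 113 and 88.8 CPM on High, 81.2 and 210 on Medium, and 251 and 338 on Low, a log2 fold change of 1.04 ± 0.54. The channel kinase Trpm7 had 75.2 and 157 CPM on High, 28.2 and 47.4 on Medium, and 12.2 and 57.4 on Low, a log2 fold change of -1.68 ± 1.08. Pkd2, a cation channel of the endoplasmic reticulum and cilium, had 515 and 65 counts on High, 0 and 420 on Medium and 0 in both Low libraries.

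The list of activity-induced CREB targets holds genes with known calcium- or CREB-responsive transcription, and CREB activity was not measured. Fold changes were negative in 10 of its 11 tested rows, whereas 45.9% of all tested rows had positive fold changes. Their median was -1.07, or -0.71 with library sizes alone, and 0 were called. Medium replicate 1, the library with counts in the fewest rows (5355), enters these values, and its part in them was not tested. In 6 of the 11, all 4 Low and Medium libraries lay below both High libraries, as 10.1% of all tested rows did. Fosb and Dusp1 are among the 6 and the 10. Both had counts on High alone and so could pass the abundance filter only through that film. Their sign and separation were thus fixed by the filter. Ier2, an immediate-early gene, had 802 and 363 CPM on High, 246 and 345 on Medium, and 296 and 229 on Low, a log2 fold change of -1.07 ± 0.36 (edgeR adjusted p = 0.778). Fosb, a subunit of the AP-1 factor, had 130 and 115 counts on High and 0 in the other 4 libraries. Dusp1, a MAP kinase phosphatase, had 82 and 117 counts on High and 0 in the other 4. Against a floor of 3 counts per library these High means were at least 52.6-fold and 43.5-fold higher. These bounds cover counting error only and leave out the spread between replicates. The fitted log2 fold changes were -10.26 ± 3.91 for Fosb and -9.98 ± 3.90 for Dusp1 (edgeR adjusted p = 0.801 for each). Btg2, an antiproliferative gene, had a log2 fold change of -0.44 ± 0.45. Creb1 itself was too sparse to set beside them.

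**Figure D4:**
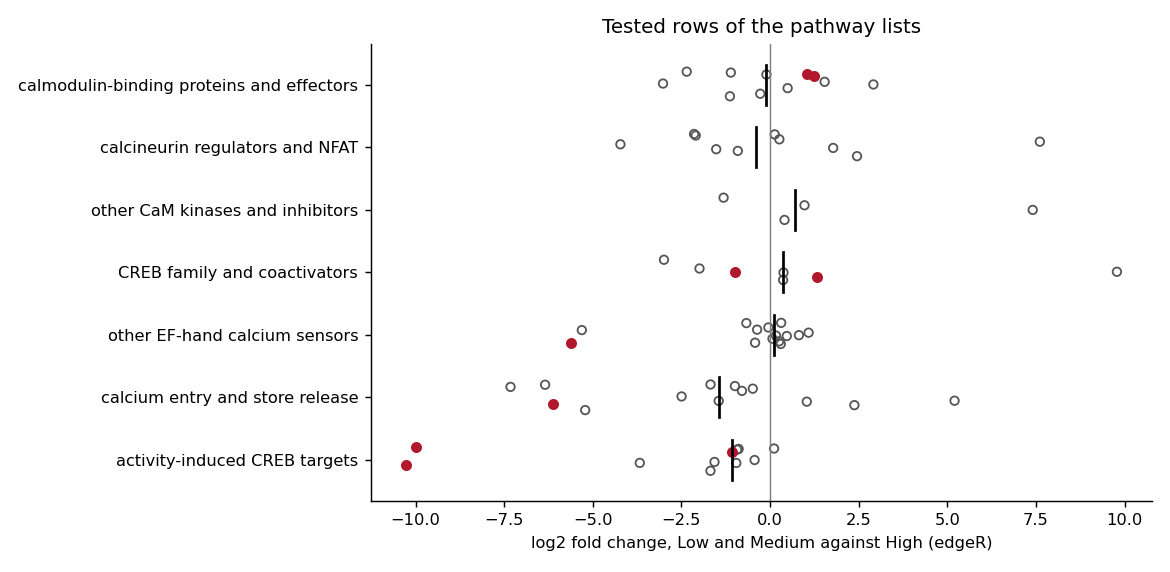
Fitted log2 fold changes for Low and Medium against High (horizontal axis) of the 70 tested rows of 7 pathway lists, with filled points at an unadjusted p under 0.05 and a vertical bar at each list's median. Of the 11 rows listed as activity-induced CREB targets 10 lie below 0, with a median of -1.07, whereas 45.9% of all tested rows lie above 0. Among these 10, Fosb and Dusp1 had counts on High alone and passed the filter only through that film.

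Cell markers are given beside these values, and 0 rows of any marker list were called by edgeR. In 5 of 8 tested neural progenitor rows the 4 Low and Medium values all exceeded both values on High, compared with 8.06% of all tested rows, and 6 of the 8 had positive and 2 negative fold changes. The summed level of the 10 marker rows was 3313 and 3599 CPM on High, 5680 and 5703 on Medium, and 4769 to 6504 on Low. Sox2 had 269 and 266 CPM on High, 598 and 554 on Medium, and 705 and 683 on Low, with a log2 fold change of 1.24 ± 0.27, and Nes had 1.64 ± 0.43. In the opposite direction, Fabp7 had 205 and 225 CPM on High, 342 and 156 on Medium, and 42.3 and 118 on Low, with a log2 fold change of -0.60 ± 0.55, and Hes1 had -0.82 ± 1.31. Msi1 and Hes5, also on that list, had 0 counts in all libraries, whereas Vim and Sox9 were abundant, at 1980 CPM or more and 594 CPM or more in every library. Of the 8, 4 had an unadjusted p under 0.05, compared with 5.5% of all tested rows. The marker lists were chosen with earlier results of these data known. The paper already names Sox2 and Nes among genes higher on Low and Medium in these libraries. Nothing further is therefore read from these shares. The summed level of 8 neuron marker rows was 31.0 and 69.4 CPM on High, 27.1 and 147 on Medium, and 140 and 202 on Low, with Rbfox3 and Syt1 at 0 in all. Most of that sum in every library was 1 gene, Gap43, which is also on the list of calmodulin-binding proteins. Gap43 had 57.1 and 18.4 CPM on High, 26.9 and 146 on Medium, and 168 and 110 on Low, a log2 fold change of 1.54 ± 1.02. Tubb3 was at 0 on High and Medium and at 13.9 and 12.1 CPM on Low. Oligodendrocyte lineage rows summed to 326 to 413 CPM on High, 510 to 556 on Medium and 619 to 748 on Low, and 2 of the 4 tested rows had positive fold changes. Astrocyte rows summed to 141 to 157 CPM on High, 146 to 203 on Medium and 129 to 220 on Low. Microglia rows, 5 of 7 at 0 in all libraries, summed to at most 37.7 CPM in any library. Meningeal and vascular rows, 5 of 10 at 0 in all libraries, summed to 64.9 to 137 CPM on High, 0 to 401 on Medium and 0 to 20.3 on Low. The part of these markers, and of the ribosomal RNA share, in the values of the calmodulin and calcineurin rows was not tested. With the ribosomal RNA rows removed before scaling, the log2 fold change of Calm2 row 2 was 0.92 and that of Ppp3r1 0.70.

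**Figure D5:**
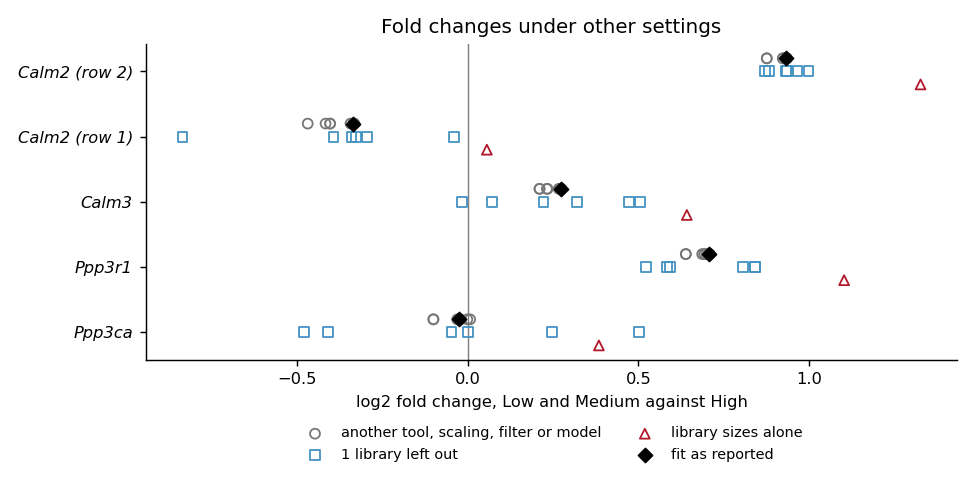
Log2 fold changes for Low and Medium against High (horizontal axis) of 5 member rows as reported (diamonds) and under other settings, with squares for fits that leave out 1 library and triangles for library sizes alone. Calm2 row 2 stays between 0.87 and 1.33 and Ppp3r1 between 0.52 and 1.10, whereas Calm2 row 1, Calm3 and Ppp3ca have values on both sides of 0.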

How the data were processed

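The authors deposited raw read counts per gene symbol, 1 table per library. Per the methods, QuantSeq 3′ libraries were sequenced single-end and aligned with Bowtie2, and unique and multiple alignments were counted with bedtools. The submitters' processing notes name the rn6 build. A strand setting is not given in the sources used here. RNA extraction is described with one reagent in the labels and another in the methods. Reads that align to several near-identical copies can add to each of them.

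Libraries were grouped by film from their labels. Rows were filtered with filterByExpr, scaled by TMM, and fitted with the edgeR 4.0.16 quasi-likelihood model in R 4.3.3 as 3 group means over all 6 libraries. P-values were adjusted by Benjamini-Hochberg over all 7729 tested rows. CPM values use the same scaling, and SE is the absolute log2 fold change over the root of F. A floor of 3 counts per library was set for counts of 0, and intervals of this kind cover counting error only, since no molecular identifiers are named. The common coefficient of variation was 1.43. Alternatives were DESeq2 1.42.0, limma-voom (limma 3.58.1), other scalings and filters, summed rows, a replicate block, fits to the groups of a contrast, and each library left out. The fit was tested on simulated data, where it gave the right direction for the altered rows it called. It also called unaltered rows, at least as many as the 10 rows edgeR called here for Low and Medium against High. Those 10 calls thus do not exceed the false calls of that simulation. The simulation drew negative binomial counts with the fitted dispersions, and whether these libraries follow that spread was not tested.

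The members and lists were chosen with earlier results of these data known. Named genes are every member row, the 2 most abundant tested rows of each list and those with an adjusted p under 0.05 in any contrast or an unadjusted p under 0.05 for Low and Medium against High, and the 3 rows most like each calmodulin row. Fam50a was named after its values were seen, as the repeated symbol next to Calm2 in spread, as were Fabp7 and Hes1, the progenitor rows with negative fold changes, and Camk2a, Camk4, Msi1, Hes5, Rbfox3 and Syt1 as listed rows at 0. Actg1, Rps10, Rps14, Rpl37, Rpl8, Rps13 and Rps20 were also named after their values were seen, as repeated symbols at like or unlike levels. RefSeq promoter windows (GRCr8) were matched by symbol. Some genes that these rules cover are not reported here.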

Additional observations from a re-analysis of the deposited data

How the results depend on the processing

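With 2 libraries per film the error of a fold change is large, and sparse rows (Ppp3cb, Camkk2, Camk2d, Camk2g, Creb1) allow no comparison between films. For Low and Medium against High, Low against High, Medium against High and Low against Medium, the counts of called rows as reported were 10, 4, 1 and 0. They were 375, 300, 307 and 116 with DESeq2, 23, 16, 14 and 0 with limma-voom, 68, 34, 48 and 5 with no filter, and 56, 30, 40 and 0 with a mean count of at least 10. With library sizes alone they were 14, 0, 0 and 0, with ribosomal RNA rows removed 7, 2, 1 and 0, and fitting only the groups of a contrast gave 0 in the 3 contrasts of pairs of films, fewer samples entering each fit. Leaving out 1 library gave 34 to 242, 19 to 65, 11 to 275 and 0 to 194, with 242, 275 and 194 without Medium replicate 2. The causes of these shifts were not tested, and a change in the calls of the set concerned row 2 of Calm2.

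That row was called, as 1 member row, by DESeq2 in all 3 contrasts against High, and in Low and Medium against High and Medium against High by limma-voom, with no filter and with a mean count of at least 10. Leaving out 1 library gave 0 to 1 called member rows in Low and Medium against High and in Medium against High, and 0 in the other contrasts. The replicate block gave 57, 30, 39 and 0 called rows and called 1 member row, row 2 of Calm2 (adjusted p = 0.0402), in Low and Medium against High. Deviations from the film means showed no pairing by replicate number, correlating at 0.0033 between High and Medium, -0.00034 between High and Low and 0.012 between Medium and Low. Whether libraries of the same number shared a culture or a batch cannot be told from these values or the labels.

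Of 432 fold changes of member rows recomputed under alternatives, 401 moved by less than the SD between replicates and 31 by more, 15 of these in Ppp3cb or Camkk2 and 22 on leaving out 1 library. Calm2 row 2 and Ppp3r1 kept a positive sign against High in every alternative run.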
